A study of Mus musculus with 6 samples.

Results

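The genes described here are 8 serpins that were listed together as granzyme inhibitors and other serpins, namely Serpinb9, Serpinb9b, Serpinb6a, Serpinb6b, Serpinb1a, Serpinb1b, Serpini1 and Serpina3g. They were chosen with their change in these arrays already known. The members were taken as all probe sets annotated to exactly 1 gene when that gene is on the list. This gave 11 of 45037 probe sets, for 7 of 18193 genes. Serpina3g had no probe set in the annotation used and is not analysed here. CD8 T cells came from P14 mice (C57BL/6, 8 to 12 weeks old), whose transgenic T cell receptor recognises a peptide of LCMV. Splenocytes were activated with this peptide for 48 hours, transduced with retrovirus at 18 hours and cultured in IL-2 for a further 48 hours. All 6 samples were treated in this way. The 3 evGFP samples received a vector with GFP alone, and the 3 GFP-KLF2 samples a vector that encodes a GFP-KLF2 fusion protein. GFP positive cells were sorted for RNA, which was read on Affymetrix mouse arrays whose probes lie near the 3′ ends of transcripts. The comparison asks how CTL gene expression differs when the transcription factor KLF2, normally lost on activation, is maintained from a retroviral vector.

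Serpins are protease inhibitors that act as bait. The target protease cleaves an exposed loop of the serpin and is then trapped in a covalent complex. Clade B serpins lack a classical secretion signal and act mostly in the cytoplasm and nucleus, where they protect a cell from proteases that leak from its own granules. Serpinb9, also called Spi6, inhibits granzyme B and protects CTL from their own granzyme B. Serpinb9b and Serpinb6b are mouse paralogues that arose by duplication in the same gene cluster. Serpinb6a and Serpinb1a are broadly expressed or myeloid clade B inhibitors, and Serpinb1a acts on neutrophil proteases such as elastase and cathepsin G. Serpini1, neuroserpin, is a secreted inhibitor of tissue plasminogen activator best known from neurons.

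The starts of 4 neighbouring genes of the cluster on chromosome 13 are shown because these genes were all higher in GFP-KLF2 cells, and because KLF proteins as a family bind CACCC boxes and related GC-rich sequence. Each window runs from 250 bases before to 50 bases after a RefSeq gene start on GRCm38.p6, on the plus strand. Capitals mark CACCC and its reverse complement GGGTG.
Serpinb6b (chr13:32965011-32965310): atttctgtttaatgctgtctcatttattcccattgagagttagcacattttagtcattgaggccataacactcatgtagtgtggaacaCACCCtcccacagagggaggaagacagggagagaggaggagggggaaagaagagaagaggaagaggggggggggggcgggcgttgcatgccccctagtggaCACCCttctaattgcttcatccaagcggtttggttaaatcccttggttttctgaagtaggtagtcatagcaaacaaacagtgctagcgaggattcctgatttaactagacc
Serpinb9 (chr13:33004291-33004590): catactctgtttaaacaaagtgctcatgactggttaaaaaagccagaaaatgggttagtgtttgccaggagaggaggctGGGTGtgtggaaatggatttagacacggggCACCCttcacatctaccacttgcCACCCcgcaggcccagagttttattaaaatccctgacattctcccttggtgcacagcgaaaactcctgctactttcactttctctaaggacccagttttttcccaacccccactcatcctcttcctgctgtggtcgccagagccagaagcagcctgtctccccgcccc
Serpinb9b (chr13:33027164-33027463): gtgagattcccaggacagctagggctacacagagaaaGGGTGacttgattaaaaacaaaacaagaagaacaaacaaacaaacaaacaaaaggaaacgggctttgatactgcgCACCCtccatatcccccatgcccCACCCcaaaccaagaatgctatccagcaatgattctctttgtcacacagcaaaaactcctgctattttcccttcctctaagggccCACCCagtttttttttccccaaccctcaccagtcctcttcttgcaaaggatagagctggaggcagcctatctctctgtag
Serpinb1b (chr13:33083853-33084152): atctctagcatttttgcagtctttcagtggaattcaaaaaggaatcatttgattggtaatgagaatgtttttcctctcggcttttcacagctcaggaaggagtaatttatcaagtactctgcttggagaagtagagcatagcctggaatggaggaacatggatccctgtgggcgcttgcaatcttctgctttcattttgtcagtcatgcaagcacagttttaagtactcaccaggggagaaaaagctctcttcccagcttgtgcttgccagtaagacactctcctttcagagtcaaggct

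The motif was found 2 times in the Serpinb6b window, 3 times in Serpinb9 and 4 times in Serpinb9b over both strands, and 0 times in Serpinb1b. On the printed strand CACCC began at positions -141 and -118 relative to the gene start in Serpinb9 and at -138, -115 and -30 in Serpinb9b. These 2 windows shared 57.4% of their aligned bases, against 41.6% to 49.4% for the other pairs of the 4 windows. The motif is short and common. At least 1 match stood in 57.5% of all 32851 windows of this length, at least 2 in 25.7%, at least 3 in 9.35% and at least 4 in 3.1%. Among 55 windows of other serpins, 50.9% held at least 1. The 2 windows of Serpinb6a held 1 match each, and the window of Serpini1 held 0. No window was listed for Serpinb1a. A match describes letters in this window and was not tested as a binding site.

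Of the 7 measured serpins, 6 were higher in GFP-KLF2 cells and 1, Serpinb6a, was lower. At the brightest probe set of each gene no arrays of the 2 groups overlapped. Groups that do not overlap were seen for 34.9% of all genes, with GFP-KLF2 higher for 14.3% and lower for 20.6%. An adjusted p under 0.046, the threshold used for a call, was reached by the 6 higher genes, against 14.6% of all genes, of which 6.22% were higher and 8.35% lower. Since the serpins were chosen on this contrast, these counts describe them and test nothing. A rise of at least 2-fold together with a call was seen in 5 of them, against 2.23% of all genes. The rise was at least 4-fold in 4, and no share over all genes was counted for that size. Levels below are log2 RMA intensities, and each difference is GFP-KLF2 minus evGFP on that log2 scale with the standard error of the limma fit. In sorted cells a difference cannot be told apart from a difference in the share of cells that express the gene.

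Serpinb9, the granzyme B inhibitor, stood at 8.96, 9.37 and 9.39 in evGFP replicates 1, 2 and 3 and at 12.18, 12.25 and 11.85 in the GFP-KLF2 replicates. Every GFP-KLF2 array thus lay above every evGFP array by more than the spread within either group. The means of 9.24 ± 0.24 and 12.09 ± 0.21 (SD, n = 3) differ by 2.85 (standard error 0.15), or 7.21-fold. A second probe set of the gene gave 6.27, 6.49 and 6.71 in evGFP and 9.86, 9.90 and 9.02 in GFP-KLF2 cells, a difference of 3.10 (standard error 0.24). Both probe sets therefore moved in the same direction and by similar amounts. In evGFP cells both probe sets read above the medians of all 6 arrays (5.64 to 5.67), and no detection call was made.

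Serpinb9b, the paralogue next to Serpinb9 in the cluster, had the largest difference of the 7 genes. It gave 5.51, 5.92 and 5.94 in evGFP cells, close to the array medians of 5.64 to 5.67, and 11.16, 10.76 and 10.90 in GFP-KLF2 cells. The difference was 5.15 (standard error 0.15), or 35.5-fold. By size of the rise its probe set ranked 7 among 45037. All 3 GFP-KLF2 arrays lay far above all 3 evGFP arrays relative to the spread within each group.

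Serpinb6b, a paralogue of Serpinb6a on the other side of Serpinb9, gave 8.08, 8.35 and 8.20 in evGFP cells and 11.54, 11.48 and 10.78 in GFP-KLF2 cells. The difference was 3.06 (standard error 0.20), or 8.33-fold, with GFP-KLF2 replicate 3 the lowest of its group. Serpinb6a went the other way. It gave 11.08, 10.69 and 11.07 in evGFP cells and 10.41, 9.62 and 10.54 in GFP-KLF2 cells, a difference of -0.76 (standard error 0.24). The groups did not overlap, but GFP-KLF2 replicate 2 was well below replicates 1 and 3, and the adjusted p was 0.0898 by limma without and 0.00907 with the replicate number as a block, a fit that called 20.7% of all genes. The 2 related genes thus differed in direction.

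**Figure D1:**
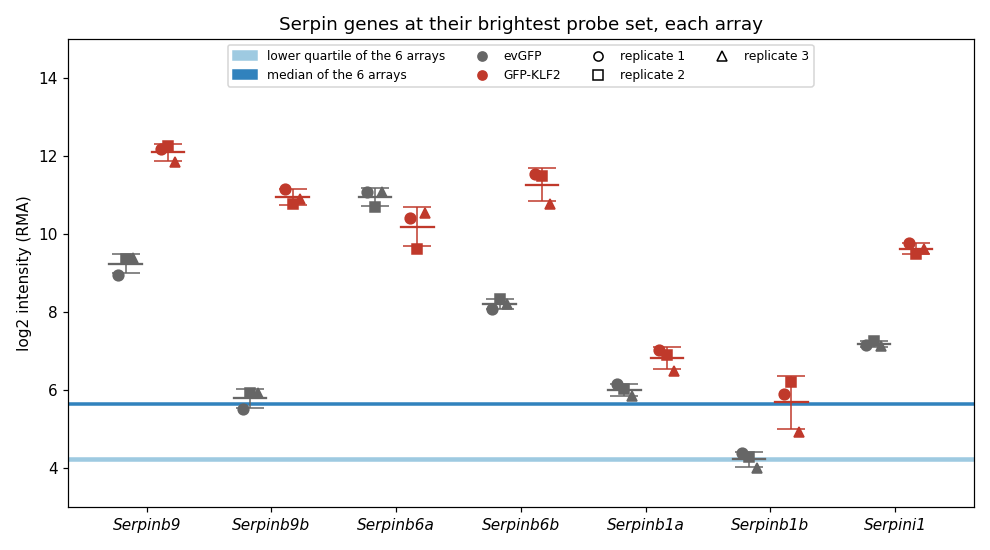
Log2 RMA intensity of 7 serpin genes at the brightest probe set of each, in 3 evGFP (grey) and 3 GFP-KLF2 (red) arrays. Symbols give the replicate, long bars the mean and whiskers the SD (n = 3). In 6 genes all red points lie above all grey points, and in Serpinb6a they lie below. The levels of different probe sets are not comparable.

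Serpinb1a, which inhibits neutrophil serine proteases, gave 6.15, 6.03 and 5.85 in evGFP cells and 7.04, 6.91 and 6.50 in GFP-KLF2 cells. The difference of 0.81 (standard error 0.15), or 1.75-fold, was the smallest among the 6 higher genes. With single arrays left out it was above the threshold without evGFP replicate 2 or GFP-KLF2 replicate 1 or 2 (adjusted p = 0.0518 to 0.058). Its paralogue Serpinb1b gave 4.39, 4.29 and 4.01 in evGFP cells, at the lower quartile of the arrays (4.18 to 4.25), and 5.92, 6.22 and 4.93 in GFP-KLF2 cells. The difference was 1.46 (standard error 0.30), with GFP-KLF2 replicate 3 closest to the evGFP arrays. Without any one array other than GFP-KLF2 replicate 3 its adjusted p was 0.06 to 0.0807. The 2 Serpinb1 genes thus had smaller differences than Serpinb9, Serpinb9b and Serpinb6b, and fewer of the single-array omissions kept them under the threshold.

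Serpini1, neuroserpin, lies on chromosome 3 and is the only measured member outside the cluster. It gave 7.15, 7.26 and 7.14 in evGFP cells and 9.77, 9.50 and 9.61 in GFP-KLF2 cells, a difference of 2.45 (standard error 0.09), or 5.45-fold. Both groups were tight, with SDs of 0.07 and 0.14. A second probe set gave 5.30, 5.0 and 4.95 against 8.02, 7.28 and 7.24, a difference of 2.43 (standard error 0.21). Another, dimmer probe set had 2.98 to 3.05 in evGFP and 2.89 to 3.16 in GFP-KLF2 cells and showed no separation (-0.03). Serpini1 was thus higher at 2 of its 3 probe sets, while this one, under the lower quartile of all 6 arrays, was not. The 6 neuronal marker genes measured had a median difference of 0.07 and a summed linear intensity of 288 to 323 in evGFP and 316 to 360 in GFP-KLF2 cells, and their part in the Serpini1 value was not tested. One of them, Tubb3, had a difference of 0.72 (adjusted p = 0.065, 0.0275 with the replicate block).

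The probe sets marked _s_at or _x_at, whose probes may read more than one transcript or related sequence, were compared with the others. Of the 11 member probe sets 1 was marked, an _s_at probe set of Serpinb1a. It gave 3.50, 3.44 and 3.50 in evGFP and 3.45, 3.43 and 3.44 in GFP-KLF2 cells, a difference of -0.04 (standard error 0.07), where the unmarked probe set of the same gene had 0.81. The marked probe set lay under the lower quartile of every array. Of the 10 unmarked probe sets 8 were called, all higher, against 11.2% of all probe sets (4.76% higher and 6.39% lower). The other 2 were those of Serpinb6a and the dimmest one of Serpini1. Since only Serpinb1a had both kinds, and its marked probe set was dim, kind and brightness cannot be told apart.

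**Figure D2:**
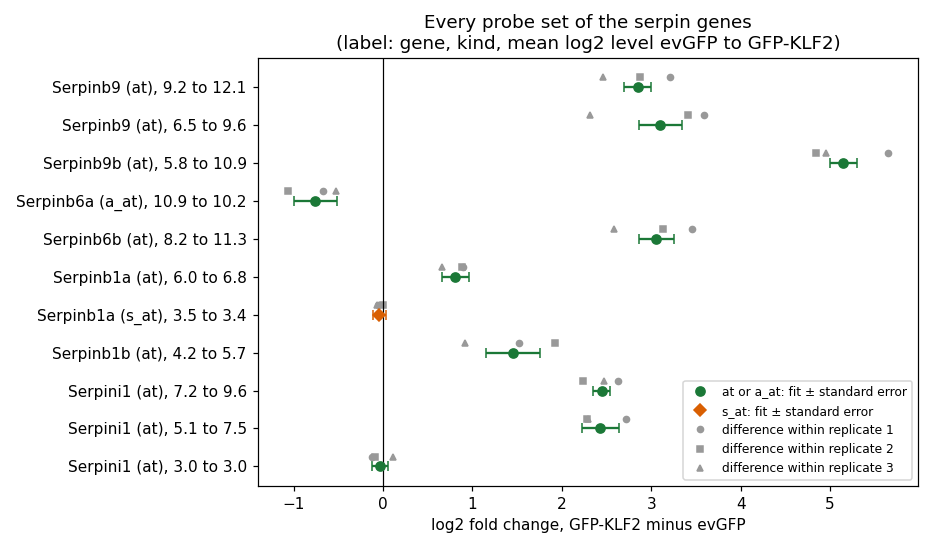
Log2 fold change (GFP-KLF2 minus evGFP) of each of the 11 member probe sets, with the standard error of the limma fit, and the difference within each replicate number above it. The 2 probe sets of Serpinb9 gave 2.85 and 3.10, while the _s_at probe set of Serpinb1a and the dimmest of Serpini1 lie at 0 within their error.

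Arrays that share a replicate number were compared with each other. For Serpinb9 the differences within replicates 1, 2 and 3 were 3.21, 2.88 and 2.46, for Serpinb6b 3.45, 3.13 and 2.59, and for Serpinb1b 1.52, 1.92 and 0.92. That of replicate 3 was thus the smallest for these 3 genes and for Serpinb1a (0.89, 0.88 and 0.65). For Serpinb9b (5.65, 4.84 and 4.96) and Serpini1 (2.62, 2.24 and 2.47) that of replicate 2 was the smallest. Of the 1125 other genes called higher, 57.5% also had their smallest difference in replicate 3, so a smallest difference in replicate 3 was common among them.

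The other serpins that were measured did not pass the test. In total 33 other serpins, taken by name, had a probe set of their own. Promoter windows were listed for 47 genes of other serpins, so not all of the family was measured. Limma called 0 of 33, against 14.6% of all genes. With the replicate block 1 was called, against 20.7% of all genes. At an unadjusted p under 0.05 there were 3, for which no share over all genes was counted. At the brightest probe set of each, their log2 fold changes ran from -0.24 to 0.34 with a median of 0.04, against -0.01 over all genes. Many of them were dim. The mean log2 level was under 5 for 24 of the 33 and at least 6 for 4, which limits the differences that the arrays could show. The 3 with an unadjusted p under 0.05 were Serping1, the C1 inhibitor (0.34, adjusted p = 0.131, 0.0362 with the replicate block), Serpinb9d (0.29, 0.0877) and Serpinb6e (0.23, 0.129). The 12 other clade B members had a median of 0.08 and the 14 clade A members a median of 0.03. Serpinf1, which encodes the secreted factor PEDF, had a difference of -0.09 at its brightest probe set (6.58 in evGFP and 6.49 in GFP-KLF2 cells). Its other probe set had -1.62 (adjusted p = 0.058, 0.00113 with the replicate block). That one was dimmer over the 6 arrays but brighter in evGFP cells, at 6.99 against 5.37 in GFP-KLF2 cells.

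**Figure D3:**
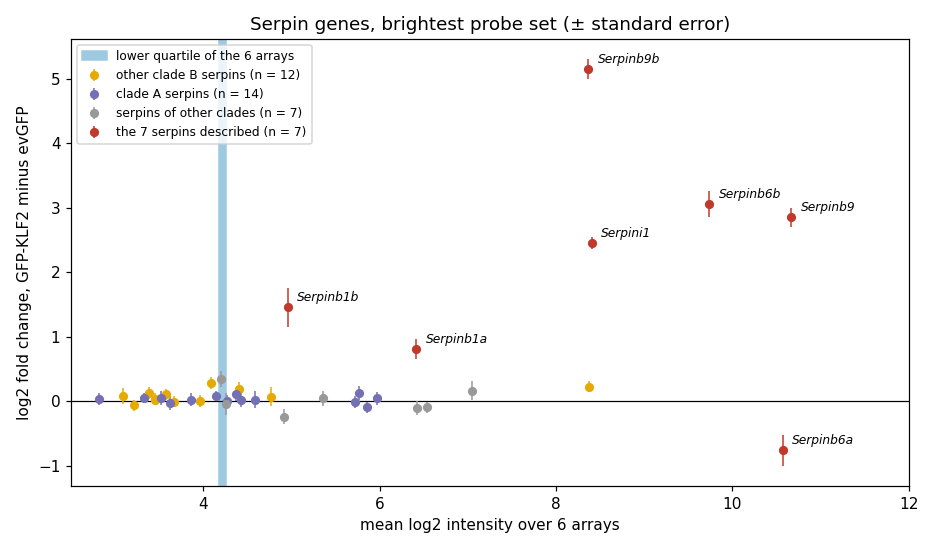
Log2 fold change (GFP-KLF2 minus evGFP, ± standard error) against the mean log2 intensity over 6 arrays for 7 listed and 33 other serpin genes at the brightest probe set of each. The other serpins lie between -0.24 and 0.34, and many are near or under the lower quartile of the arrays.

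Of the 7 measured members, 6 lie in a cluster of clade B serpins on chromosome 13. This cluster does not hold all of clade B. Of the 33 other serpins 12 are clade B, but only 5 lie on chromosome 13, and 8 lie on chromosome 1. In the RefSeq order of GRCm38.p6, 16 protein-coding genes run from Serpinb1a to Serpinb6a, all of them serpins, and 11 had a probe set of their own. The 5 genes that were higher all stood at one end. In order they were Serpinb1a (0.81), Serpinb6b (3.06), Serpinb9 (2.85), Serpinb9b (5.15) and Serpinb1b (1.46), with Serpinb1c, which had no probe set of its own, between the first pair. The next measured genes, Serpinb9c (0.04), Serpinb9d (0.29), Serpinb9g (0.08), Serpinb6e (0.23) and Serpinb6c (0.02), did not pass the test. Except for Serpinb6e, at 8.26 in evGFP cells on an _x_at probe set, their mean levels were under 4.3 in both groups. A probe set shared by Serpinb9e, Serpinb9f, Serpinb9g and Serpinb9h gave 3.47 to 3.79 across the arrays. Serpinb6a closed the cluster. Outside it, 11 of 12 flanking protein-coding genes were measured. These were looked at after the values of the serpins had been seen. Gmds, an enzyme of GDP-fucose synthesis, fell (-0.91, adjusted p = 0.0139), and the tubulins Tubb2a (1.01, 0.0225) and Tubb2b (2.20, 0.0127) rose. The direct neighbours Wrnip1 (-0.26, 0.101) and Nqo2 (-0.37, 0.204, 0.0395 with the replicate block) did not pass the test, nor did Bphl (-0.81, 0.0503, 0.00823 with the replicate block). Without evGFP replicate 2 neither Gmds, Tubb2a nor Tubb2b was called (adjusted p = 0.0514, 0.0796 and 0.053). Tubb2a was also not called when any GFP-KLF2 array was left out (0.0596 to 0.0737), nor Tubb2b without GFP-KLF2 replicate 2 (0.0478).

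**Figure D4:**
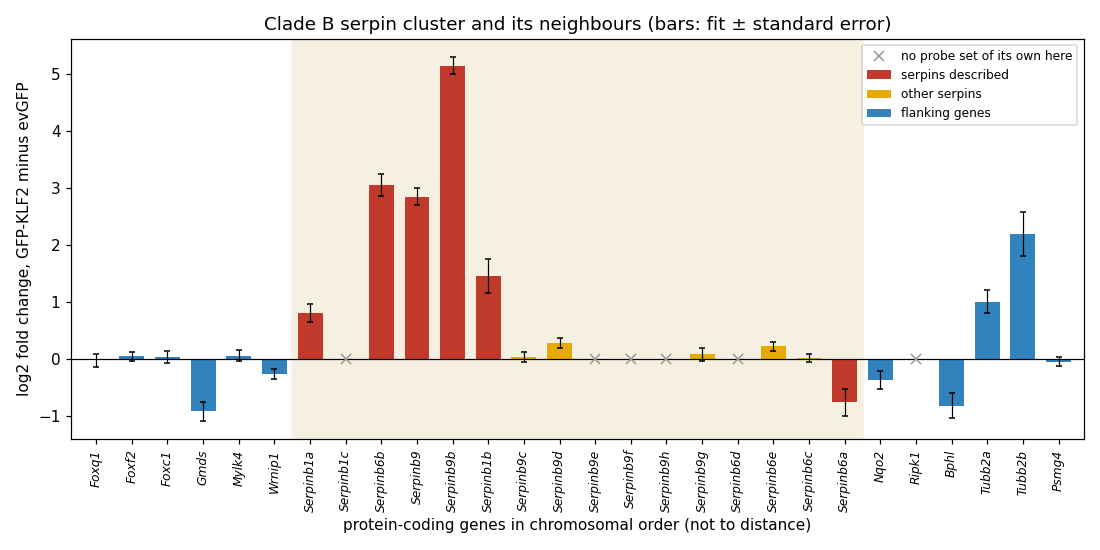
Log2 fold change (GFP-KLF2 minus evGFP, ± standard error) of the genes of the serpin cluster (shaded) and 6 protein-coding genes on each side, in chromosomal order and not to distance. Crosses mark genes without a probe set of their own. Red bars at the left of the cluster reach from 0.81 to 5.15, and Serpinb6a at its right has -0.76.

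With the serpins described left out, the 5 genes whose profile over the 6 arrays was most like that of Serpinb9 were found by the root mean square difference between log2 values, each taken relative to the mean of the gene. They were Tob1, an anti-proliferative gene (0.079 log2 units), Pogk (0.157), Pde8a, a cAMP phosphodiesterase (0.165), Ms4a6d (0.201) and Mxd1, an antagonist of MYC (0.202). Among the serpins left out Serpinb6b lay at 0.188, closer than Ms4a6d and Mxd1, and Serpini1 at 0.283 from Serpinb9, while Serpinb9b lay at 1.16. As the 6 arrays fall into 2 groups, this measure mostly reflects the size of the group difference, which was 2.86 for Tob1.

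Of the proteases that these inhibitors meet, Gzmb, granzyme B, had the brightest signal and no detected difference. It had 14.77, 14.82 and 14.88 in evGFP and 14.81, 14.82 and 14.81 in GFP-KLF2 cells, a difference of -0.01 (95% confidence interval -0.18 to 0.16, adjusted p = 0.959). These levels lay near the highest of any probe set on the arrays (14.97 to 15.04), and whether the probe set could still read a difference there was not tested. Of 11 granzyme and perforin genes, 2 rose and 9 did not pass the test, with a median of 0.96. The share of all genes called was 14.6%, with 6.22% higher. Prf1, which encodes the pore-forming protein perforin, rose by 2.52 (adjusted p = 0.00442) and Gzmm, granzyme M, by 1.15 (0.00806). Gzma had 12.30, 13.05 and 14.16 in evGFP and 14.40, 14.41 and 14.60 in GFP-KLF2 cells (1.30, adjusted p = 0.0841, 0.0262 with the replicate block). The evGFP arrays thus differed among themselves for Gzma, with replicate 3 the highest, while Gzmm, at 6.23, 6.27 and 6.19, was tight. Gzmd, on an _x_at probe set, had the largest difference of the list (2.55, adjusted p = 0.205). It ranged more widely, at 4.50, 6.22 and 9.56 in evGFP cells. Its differences within replicates 1, 2 and 3 were 5.31, 2.70 and -0.35. Gzme, also on an _x_at probe set, gave 5.67, 6.51 and 8.79 in evGFP cells. Whether these probe sets read each other's transcripts was not tested. Without evGFP replicate 3, 7 of the 11 were called higher.

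Among other proteases of granules and lysosomes, calls fell in both directions. Of 25 measured, 5 rose, 2 fell and 18 did not pass the test, with a median of 0.13, where 6.22% of all genes were called higher and 8.35% lower. The rises included Ctsd, the aspartic protease cathepsin D (1.16, adjusted p = 0.00303), Ctsg, cathepsin G (1.03, 0.00141), and Ctsc, the dipeptidyl peptidase that activates granzymes (0.72, 0.00571). Ctsw, a cathepsin of cytotoxic lymphocytes, rose by 0.63 (0.0313). Cathepsin G is a target of Serpinb1a, as are Elane, neutrophil elastase (0.13, 0.369), and Prtn3, proteinase 3, which fell by 0.32 (0.0273) at levels of 4.75 and 4.43. Of these 3 targets, 1 thus rose, 1 fell and 1 did not pass the test. Single arrays changed this list. Without evGFP replicate 1 or GFP-KLF2 replicate 1, 4 genes were called, and 3 without evGFP replicate 2 or GFP-KLF2 replicate 2 or 3. Ctsd, Ctsg and Ctsc remained in each case, while Prtn3 was called in none of the 6 fits with an array left out.

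Among inhibitors that are not serpins there were also calls in both directions. Of 22 measured, 3 rose, 2 fell and 17 did not pass the test, with a median of 0.03, beside the same shares over all genes. Reck, a membrane-anchored inhibitor of matrix metalloproteinases, rose by 1.05 (adjusted p = 0.00394), Slpi, a secreted inhibitor of elastase, by 0.84 (0.00733), and Cst3, cystatin C, by 0.71 (0.00812). Tfpi, the inhibitor of tissue factor, fell by 1.00 (0.0158), and Cst7, cystatin F, which inhibits cathepsin C in granules, fell by 0.54 (0.0136). Cst7 was not called without evGFP replicate 1 or 2 or GFP-KLF2 replicate 1, nor Tfpi without GFP-KLF2 replicate 2. Timp2 had a difference of 0.68 (adjusted p = 0.0709, 0.00407 with the replicate block). The changes in this list were all smaller than those of Serpinb9, Serpinb9b, Serpinb6b and Serpini1, a comparison of sizes that was not tested.

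**Figure D5:**
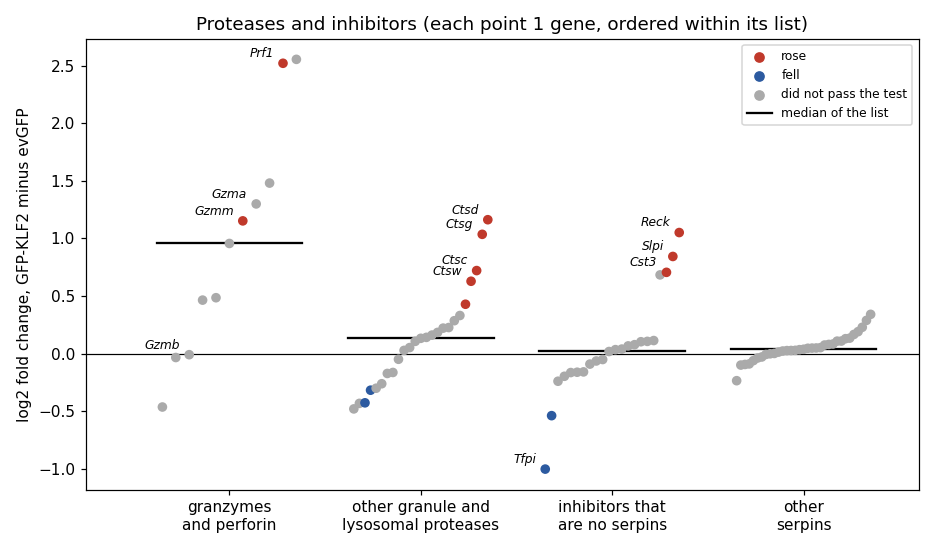
Log2 fold change (GFP-KLF2 minus evGFP) of each measured gene in 4 lists, at the brightest probe set. Colour gives the call of each gene (red for higher, blue for lower, grey for neither), and a black line marks each list's median. Of the granzymes and perforin 2 of 11 are red, and of the other serpins 0 of 33 are coloured.

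The arrays carried the markers of CD8 T cells, with 9 measured genes at mean levels of 8.14 to 13.75 and a summed linear intensity of 49960 to 52680 in evGFP and 53130 to 56400 in GFP-KLF2 cells. Of these 9, 1 was called, Cd8b1, which rose (0.45, adjusted p = 0.0107), and 3 had an unadjusted p under 0.05. The others of the 3 were Cd5 (-1.12, adjusted p = 0.0493, 0.00916 with the replicate block) and Thy1 (0.20, 0.149). Markers of granulocytes, cells rich in Serpinb1a and cathepsin G, had 0 of 9 genes called (0 at an unadjusted p under 0.05), all at mean levels under the median of the arrays, with sums of 202 to 236 and 231 to 237. Of 8 mast cell markers 1, Kit, rose, by 3.38 (adjusted p = 0.00625), with sums of 225 to 261 and 431 to 1042. At an unadjusted p under 0.05 there were 2, the other being Cma1 with 0.33 (adjusted p = 0.128). Mean levels of the 8 ran from 3.47 to 7.34, with 6 of them under the median of the arrays. Of 12 myeloid markers Itgax rose by 2.41 (adjusted p = 0.00379), with sums of 586 to 627 and 775 to 943. Cd68 was also called with the replicate block (0.43, adjusted p = 0.0252). Of 4 CD4 T cell markers Zbtb7b rose (0.45, adjusted p = 0.0429), with sums of 301 to 340 and 373 to 409. The sums of 8 epithelial markers did not overlap either, at 433 to 573 and 590 to 907, and none of them was called without the block. The 2 at an unadjusted p under 0.05 were Cdh1 (1.86, adjusted p = 0.164, 0.00626 with the replicate block) and Krt19 (0.41, 0.0963). The part of these markers in the serpin values was not tested. The Klf2 probe set had 10.99, 10.37 and 8.80 in evGFP and 9.83, 9.67 and 8.74 in GFP-KLF2 cells, a difference of -0.64 (adjusted p = 0.552). Per the study this probe set reads sequence that the construct lacks, so it does not check the labels.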

How the data were processed

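RNA of 3 evGFP and 3 GFP-KLF2 samples was measured on Affymetrix mouse arrays. The authors normalized the arrays with RMA and deposited linear intensity values for 45101 probe sets, between 5.74 and 33638, of which 64 were controls and were left out. Log2 of these values was fitted with limma 3.58.1 (R 4.3.3, lmFit and eBayes, no covariates) over 45037 probe sets, with Benjamini-Hochberg adjustment over all of them. A gene was called at an adjusted p under 0.046. The study's methods print this value as a percentage beside a 2σ level, which as a share would be 0.00046 and was tried as an alternative, and add a requirement of a 2-fold change, which was not part of the call here. The precision is limited by 3 arrays per group, and an exact 2-sided permutation test of one value could not go below 0.1. Array medians were 5.64 to 5.67 and correlations 0.9931 to 0.9961 within and 0.9823 to 0.9897 between groups, on the log2 scale. The labels call the samples biological replicates and do not say whether they came from separate animals, so p-values measure the spread between these samples, which may be technical.

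The platform annotation gave 1 gene for 34945 probe sets, several for 932 and none for 9160. A gene was represented by its brightest probe set. The members and lists were chosen with earlier results of these data known. Genes were named by a rule, namely every member, called other serpins, up to 4 called genes of each protease or inhibitor list, Gzmb, Gzma, Prf1 and the 5 genes most like Serpinb9 with members left out. Other genes named were chosen after their values were seen, except that Elane and Prtn3 stand as targets of Serpinb1a. Of the 7 measured members and the 33 other serpins, all had an entry in the RefSeq table of GRCm38.p6, which served for gene order and, with its promoter windows, for sequence. The files name no genome build. Windows were read with pandas 2.3.3 and aligned with biopython 1.88.

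Samples with the same replicate number deviated together from their group means (r = 0.325, 0.442 and 0.466, against -0.38 to 0.0578 for different numbers), so the replicate number also served as a block in a further fit. Other alternatives were the threshold, a filter on dim probe sets, the probe set that stands for a gene, probe sets marked _s_at or _x_at left out, 3 other normalizations, weights for the arrays, a robust prior with a trend on intensity, and each array left out. The fit was tested on simulated data.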

Additional observations from a re-analysis of the deposited data

How the results depend on the processing

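With the threshold of 0.00046, which 0.187% of all genes passed, the called genes were 3 among the serpins described (Serpinb9, Serpinb9b and Serpini1, with 3 probe sets), 0 among the granzymes and perforin, 0 among the other granule and lysosomal proteases and 0 among the other inhibitors. Among the other serpins 1 gene was called with the mean of all probe sets (Serpinf1, lower) and 1 with the replicate block (Serping1, higher). With arrays left out in turn, when 6.3% to 11.9% of all genes were called, the counts were 4 to 6 for the serpins described, 6 to 8 for their probe sets, 0 to 0 for the other serpins, 2 to 7 for the granzymes and perforin, 3 to 5 for the other proteases and 4 to 5 for the other inhibitors. The 7 came without evGFP replicate 3 (Gzma, Gzmd, Gzme, Gzmf, Gzmg, Gzmm and Prf1), with Gzmd and Gzme on _x_at probe sets. Serpinb9, Serpinb9b, Serpinb6b and Serpini1 remained called whichever array was left out. Over the alternatives their log2 fold changes were 2.71 to 2.97, 5.01 to 5.24, 2.92 to 3.30 and 1.61 to 2.53, those of Serpinb1a and Serpinb1b 0.39 to 0.97 and 1.19 to 1.83, and that of Serpinb6a -0.93 to -0.47. The low ends for Serpini1 (1.61) and Serpinb1a (0.39) came from the mean of all probe sets, which includes a dim one. Pairing by the replicate block called Serpinb6a, Gzma, Ctse, Timp2 and Serping1 in addition and changed no other call among the serpins, proteases and inhibitors. Among the cell type markers it added Cd5 (lower), Cd68, Cdh1, Klre1 and Tubb3 (higher). Serpinb1b, with a mean level under 5, was dropped by the filter on dim probe sets. For the other serpins low signal limits what the arrays could show.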
